A study of Mus musculus with 2 samples.

Results

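The EGF receptor system of mouse epidermis was followed through 10 genes: the ligand genes Areg, Hbegf, Ereg, Epgn, Tgfa and Btc, the receptor genes Egfr, Erbb2 and Erbb3, and Errfi1, a feedback inhibitor of the receptors. The genes were chosen by name, with earlier results of these arrays known, and every non-control probe whose RefSeq accession maps to one of them was taken, which gave 19 probes of 26690 that could be named. Of 18217 named genes, 12408 had a probe well above background and not saturated on both arrays, and all 10 were among them. The control RNA came from epidermis of the Nfkbiz flox/flox genotype, in which the gene is floxed but no recombinase is present. The knockout RNA came from Nfkbiz flox/flox; K5-cre epidermis, in which Cre is driven by the keratin 5 promoter, active in basal keratinocytes and the outer cells of the hair follicle, so that resident T cells, Langerhans cells and melanocytes keep the gene. Nfkbiz encodes IκBζ, a nuclear IκB protein that keratinocytes make in response to inflammatory cytokines. Both samples were taken in the steady state, with no treatment of the animals named, and Cre itself was present on the knockout side only, so its own effect and that of the deletion cannot be told apart. Each genotype has 1 array. The labels state neither the age, the sex nor the number of the mice.

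The EGF receptor is a tyrosine kinase of basal keratinocytes and of the outer root sheath of the hair follicle. Its ligands are made as membrane-anchored precursors, are cut free by metalloproteinases such as ADAM17, and act on the same cell or on neighbours. The bound receptor pairs with itself or with ErbB2, which has no known ligand of its own, or with ErbB3, whose kinase is weak, and signals through RAS and ERK to proliferation, migration and wound closure. Errfi1 encodes MIG6, which the signal itself induces and which binds the kinase domain and shuts it off. Mice lacking Tgfa, or carrying a weak Egfr allele, have wavy hair.

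Each value below is a processed Cy3 intensity in scanner units, and a difference is the log2 knockout signal minus the log2 control signal after each array was divided by the 75th percentile of its non-control probes (194 in the control, 227 in the knockout). A value after ± is a standard error of that difference, taken from the error estimates of the extraction software, and it leaves out the spread between mice. It was not reduced for repeat spots: Hbegf with 1 spot and the Erbb2 probe with 10 both have 0.20. In the brighter probes it is nearly the same value whatever the gene, so there it is no measured precision of that gene. With 1 array a group no difference could be tested, and a 2-fold difference was used as the line for a call. Signals are printed before this scaling, so a probe slightly brighter on the knockout array can have a difference below 0. Signals of different probes are not on a common scale and are not set against each other gene by gene. The sums given below for marker lists do add such signals, so each sum weighs its probes by their brightness. Nfkbiz itself, which checks the labels, read 3100 in the control and 1760 in the knockout (difference -1.04 ± 0.20, -0.70 with median scaling and -0.97 with normexp, both under 2-fold), but the probe was not placed against the deleted part, so the check is limited. The keratinocyte markers were bright on both arrays: all 7 basal and all 7 suprabasal markers were measured, none was 2-fold apart, and their median differences were -0.25 and -0.10.

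The ligands went different ways. Hbegf was 2.27-fold higher and Epgn 2.03-fold lower on the knockout array, Ereg was 1.87-fold higher, and Areg, Btc and the brighter Tgfa probe lay within 1.32-fold. Egfr and Errfi1 were lower, at 1.47-fold and 1.89-fold by their brightest probes, and Erbb2 and Erbb3 were within 1.23-fold. Counted at 2-fold, 1 of the 10 genes was higher and 1 was lower. Among all 12408 measured genes the shares past 2-fold were 2.98% higher, 4.46% lower and 7.45% in either direction, and counts of 1 in 10 are too small to set these genes apart from them. By probe, 1 of the 18 measured probes was 2-fold higher and 4 were 2-fold lower (Epgn, 1 of Tgfa and 2 of Egfr), where the shares of all 17539 measured named probes were 2.9% and 4.74%. The probe counts were 2 higher and 1 lower with median scaling and 1 higher and 0 lower with normexp. The median difference of the 10 genes was -0.24, beside -0.05 over all measured genes.

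**Figure D1:**
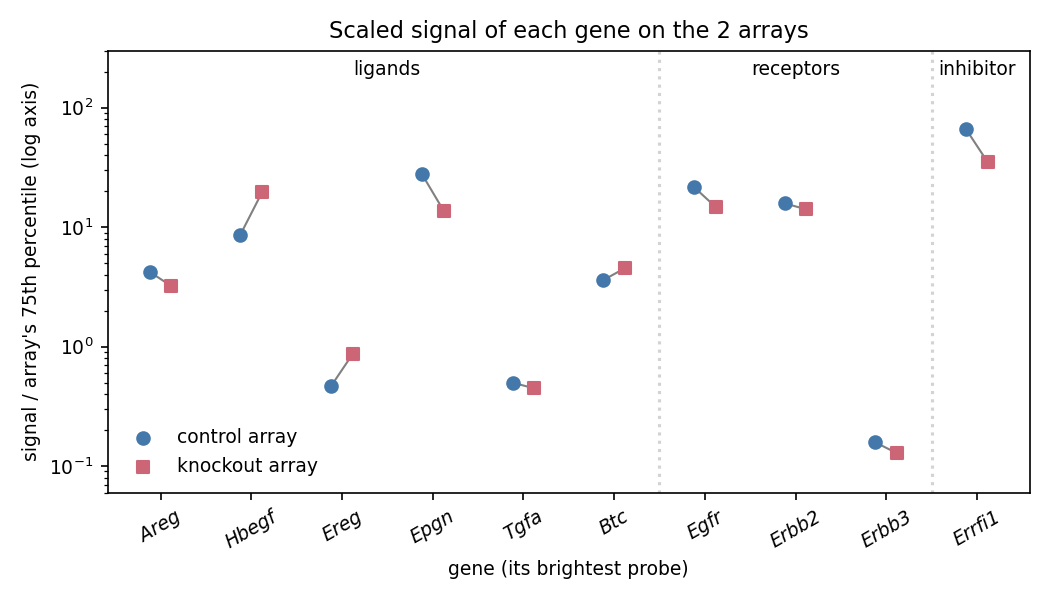
Signal of the brightest probe of each gene divided by its array's 75th percentile (log axis), with circles for the control and squares for the knockout array, 1 array each. Hbegf and Ereg have the steepest lines upward and Epgn and Errfi1 the steepest downward, while the heights of different genes come from different probes and are not comparable.

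Hbegf encodes heparin-binding EGF-like growth factor, a ligand that keratinocytes release early in wound closure. Its single probe read 1680 in the control and 4470 in the knockout. The difference was 1.19 ± 0.20, above that of 98.2% of measured genes. Spots within 3 rows and 3 columns of it had a median difference of -0.06, so the spot did not share its difference with its surroundings. Hbegf stayed at least 2-fold higher under all 6 ways of scaling, from 1.16 to 1.53.

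Ereg encodes epiregulin, a ligand of both the EGF receptor and ErbB4. Its single probe read 90.7 in the control and 198 in the knockout, a difference of 0.90 ± 0.22. The value was above that of 96.1% of measured genes and just short of 2-fold. It passed 2-fold only when the arrays were scaled on their medians (1.25), and was 0.63 after normexp background correction, whose added offset shrinks differences of dim probes by construction.

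Epgn encodes epigen, a low-affinity ligand of the EGF receptor. Its single probe read 5410 in the control and 3120 in the knockout. The difference was -1.02 ± 0.20, with 4.25% of measured genes lower still, and it lies on the threshold itself. It was -0.67 with median scaling and -0.81 with normexp, and the spots around it had a median of -0.21. Epgn was below 0 under all 6 scalings but 2-fold lower under only 2 of them.

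A constant shift between arrays cancels in the gap between these ligands. Hbegf minus Epgn was 2.21 on the log2 scale, a 4.61-fold change in the ratio of the 2 signals, and it ranged from 1.97 to 2.21 over the 6 scalings. Ereg minus Epgn was 1.92, with a range from 1.43 to 1.92. These pairs were chosen for their opposite values, and Hbegf and Epgn are the highest and lowest of the 10 genes. Neither the direction nor the size of the gaps is therefore a result.

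Areg encodes amphiregulin, a ligand much used by keratinocytes to stimulate themselves in culture. Its single probe read 819 and 728 on the control and knockout arrays, a difference of -0.40 ± 0.20. It was below 0 under each of the 6 scalings, but only by 0.05 with median scaling. Btc encodes betacellulin, a ligand of the EGF receptor and ErbB4. Its brighter probe read 699 and 1030, a difference of 0.33 ± 0.20, and its other probe, at 10.3 and 9.85, was not well above background on either array.

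Epgn, Ereg, Areg and Btc are consecutive protein-coding genes on chromosome 5, in that order, between Mthfd2l and Parm1 in RefSeq. Neighbours in this row did not share a direction: the differences along it were -1.02, 0.90, -0.40 and 0.33. Ereg minus Areg, the middle pair of the row, was 1.30, with a range from 0.85 to 1.32 over the scalings.

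The 250 bases before the start site are shown for the genes of this row that have an entry in the RefSeq promoter table (build GRCm38.p6), to set the start of the ligand with the lower signal beside those of its neighbours. Capitals mark matches on either strand to the TATA box (TATAAA), the CCAAT box (CCAAT), the cyclic AMP response element (TGACGTCA) and the AP-1 site (TGANTCA). The κB consensus, the binding site of NF-κB with which IκBζ associates, was searched too.
Epgn, chr5:91027267-91027516, plus strand: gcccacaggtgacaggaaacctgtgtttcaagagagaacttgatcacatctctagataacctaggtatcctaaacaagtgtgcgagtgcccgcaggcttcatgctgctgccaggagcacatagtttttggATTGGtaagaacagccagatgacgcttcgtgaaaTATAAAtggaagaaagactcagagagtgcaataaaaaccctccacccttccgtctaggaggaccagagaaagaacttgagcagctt
Areg, chr5:91139349-91139598, plus strand: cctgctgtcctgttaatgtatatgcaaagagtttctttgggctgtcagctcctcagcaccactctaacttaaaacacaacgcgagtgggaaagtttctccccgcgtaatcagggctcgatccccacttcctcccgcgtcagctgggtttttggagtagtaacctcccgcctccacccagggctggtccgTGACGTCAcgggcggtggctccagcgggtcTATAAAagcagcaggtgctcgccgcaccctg
Btc, chr5:91402995-91403244, minus strand: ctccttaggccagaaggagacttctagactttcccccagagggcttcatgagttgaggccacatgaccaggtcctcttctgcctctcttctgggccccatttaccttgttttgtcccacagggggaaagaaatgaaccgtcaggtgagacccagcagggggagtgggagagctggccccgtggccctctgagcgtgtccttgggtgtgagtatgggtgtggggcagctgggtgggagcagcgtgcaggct
The Epgn window held a TATA box that begins 86 bases before the start site and, on the opposite strand, a CCAAT box that begins 120 bases before it. The Areg window held a TATA box at 31 bases and a cyclic AMP response element at 61 bases, and the Btc window held no match. No AP-1 or κB match was found in any of the 8 windows read, which says only that those letters are not in these bases. No window of Hbegf, Ereg or Erbb3 was read, so nothing is known here of their sites. One of the windows of Errfi1 held a TATA box at 28 bases, a cyclic AMP response element at 51 and a CCAAT box at 85, and that of Erbb2 a CCAAT box at 41. Of 32851 windows of this length, 12.4% held the TATA box, 33.8% the CCAAT box, 1.55% the cyclic AMP response element, 6.75% the AP-1 site and 7.25% the κB consensus. The windows read belong to 7 of the 10 genes.

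Tgfa, which encodes transforming growth factor α, was read by probes that did not agree. One probe, printed 10 times, averaged 96.8 in the control over 10 spots (SD 0.11 in log2) and 101.4 in the knockout over 7 (SD 0.08), where the rest were marked as outliers. The spot ranges of the arrays overlap, and the difference was -0.16 ± 0.22. The other probe, printed once, read 64.3 in the control and 19.2 in the knockout, a difference of -1.97 ± 0.30, which was -0.82 with normexp and then under 2-fold. The gap of 1.81 between them, 0.64 with normexp, is wider under the 75th percentile than that of 98.7% of the 4069 genes with several measured probes, whose median gap was 0.29. Both probes carry the accession of the same transcript, NM_031199, and were not placed along it. By the mean over its probes, Tgfa would count as 2-fold lower (-1.06).

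**Figure D2:**
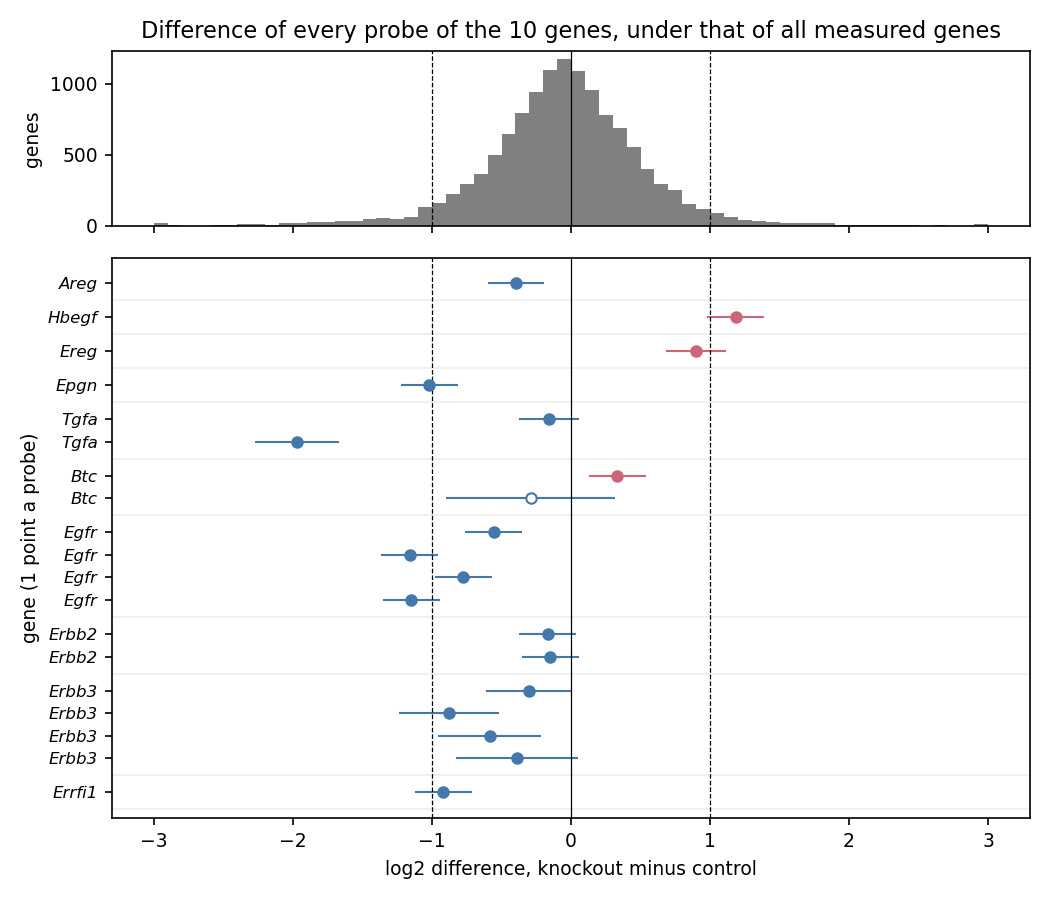
Lower panel, the log2 difference (knockout minus control) of each of the 19 probes with its error-model standard error, by gene; blue points are below 0, red points above, and the open point is the Btc probe that was not well above background. Upper panel, the same difference for all 12408 measured genes, with values beyond 3 placed at the ends; dashed lines mark 2-fold, which 1 probe passes upward and 4 pass downward.

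Egfr was lower by all 4 of its probes, but by different amounts. A probe for the transcript NM_207655 printed 10 times read between 3630 and 4550 in the control over 9 usable spots and between 3120 and 3560 in the knockout, and the ranges do not overlap. Its difference was -0.56 ± 0.20, and spot by spot it ran from -0.72 to -0.25. A probe for the transcript NM_007912, also printed 10 times, read between 938 and 1160 in the control and between 529 and 621 in the knockout. Its difference was -1.16 ± 0.20, from -1.30 to -0.92 spot by spot, with 8 of 10 spots at least 2-fold lower.

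The spot ranges of these Egfr probes do not overlap either, so the gap of 0.60 between them is larger than the spread between spots. Spots of one array share one RNA and are no replicates of a genotype. The gap does not follow the transcript to which a probe is annotated: a further NM_207655 probe read 451 and 238 (-1.15 ± 0.21) and a further NM_007912 probe 453 and 310 (-0.77 ± 0.20). Under median scaling the differences of the 4 probes ran from -0.81 to -0.21, all below 0. A statement that Egfr was 2-fold lower would therefore hold for 2 of its 4 probes under the 75th percentile and for none under median scaling.

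**Figure D3:**
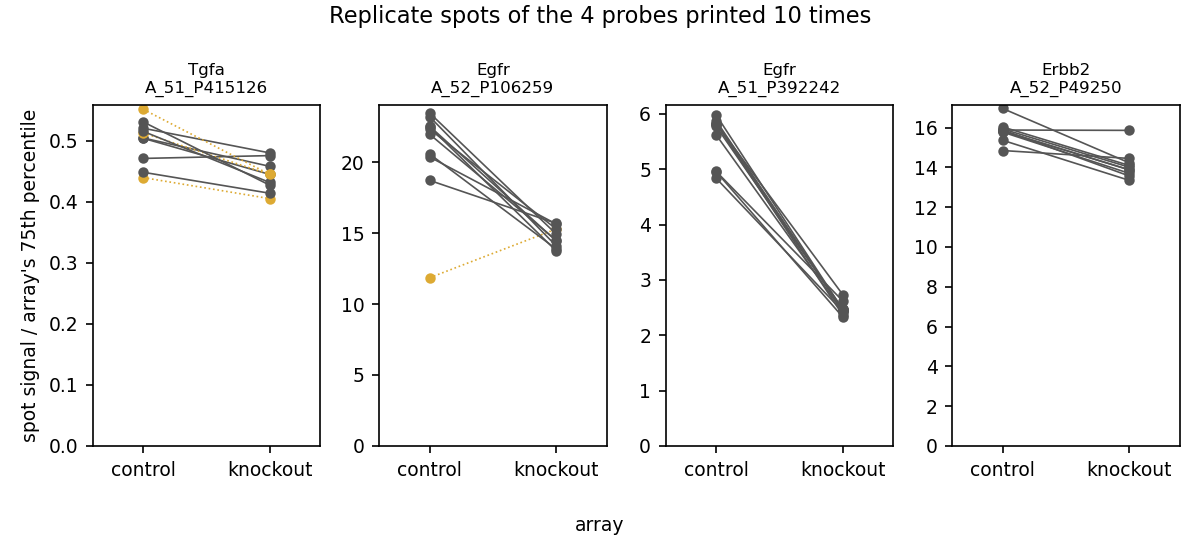
Spot signals divided by each array's 75th percentile, on linear axes from 0, for the 4 probes printed 10 times, with 1 line for each spot position on the 2 arrays and dotted lines where a spot was marked as an outlier. All usable Egfr lines run down, more steeply in the second Egfr probe (-1.16) than in the first (-0.56), while the Tgfa and Erbb2 lines are close to level (-0.16 and -0.17).

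Erbb2, which encodes the receptor without a ligand of its own, was read alike by both of its probes. The one printed 10 times read between 2880 and 3290 in the control and between 3030 and 3600 in the knockout, with overlapping ranges and a difference of -0.17 ± 0.20. The other read 180 and 190 (-0.15 ± 0.21). The gap between the probes, 0.02, is smaller than in most genes, and only 3.78% of genes with several probes had a smaller one. The sign of the Erbb2 difference turns with median scaling, to 0.18.

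Erbb3, which encodes the receptor with the weak kinase, was dim. Its 4 probes read between 14.0 and 31.2 in the control and between 12.5 and 29.0 in the knockout, where the lowest signals well above background were 12.7 and 12.1. All 4 differences were below 0, from -0.88 to -0.30, with standard errors between 0.31 and 0.44. The brightest probe, at 30.6 and 29.0, differed by -0.30 ± 0.31 and by 0.04 with median scaling. Erbb3 is also expressed by melanocytes, whose markers differed between the arrays: 3 of 4 measured markers were at least 2-fold lower, and the summed signal of the list, in units of each array's 75th percentile, was 9.28 in the control and 2.32 in the knockout. Of the melanocyte markers read here, Tyr was not well above background on either array, and the part of these cells in the Erbb3 values was not tested. In bulk tissue, fewer cells of a type and less RNA per cell cannot be told apart.

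Errfi1, the feedback inhibitor, read 12800 in the control and 7920 in the knockout from its single probe. The difference was -0.92 ± 0.20, with 5.40% of measured genes lower. It was below 0 under all 6 scalings, from -0.92 to -0.57, and 2-fold lower under none. Errfi1 and Ereg are the genes just short of the 2-fold line, and Epgn is the gene just past it.

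**Figure D4:**
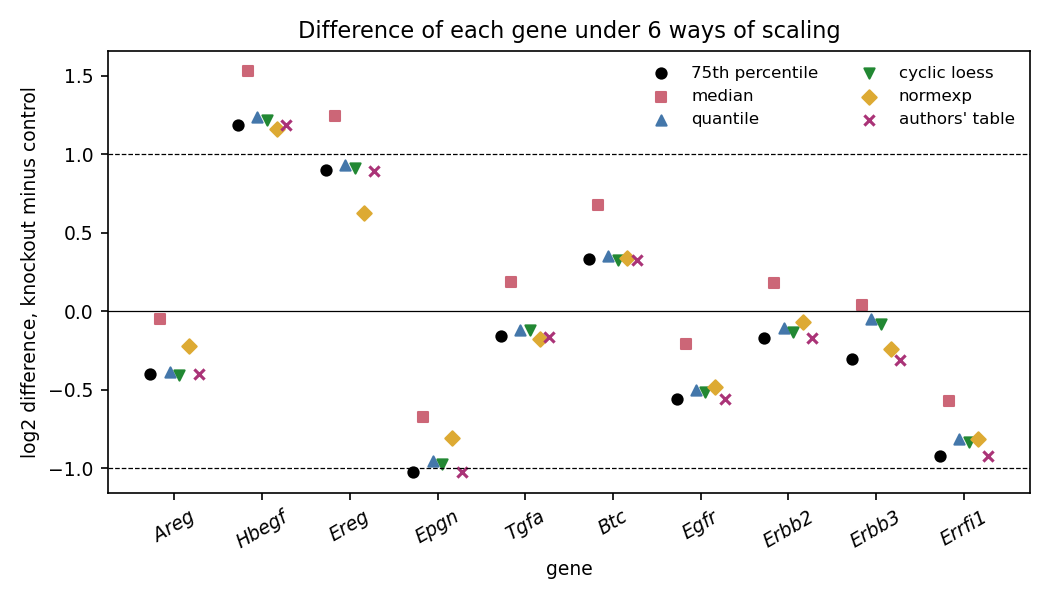
Log2 difference (knockout minus control) of the brightest probe of each gene under 6 ways of scaling the 2 arrays; dashed lines mark 2-fold. Hbegf is above the upper line in every setting, and median scaling lies above the 75th percentile by the same step in all genes. Epgn passes the lower line in 2, the 75th percentile and the authors' table that nearly repeats it.

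Cells of the hair follicle use the EGF receptor, and follicle markers differed between the arrays. Of 5 measured follicle stem cell markers, 3 were at least 2-fold lower. Lgr5, measured on the control array alone, read 48.3 and 12.4. Its scaled ratio was 4.56-fold lower, with a knockout signal not well above background. The summed scaled signal of that list was 149.1 in the control and 20.8 in the knockout, but such a sum weighs probes by their brightness: Plet1 alone gave 135.6 and 15.5 of it, and the other markers together 13.5 and 5.28. Sox9 (-0.95) and Lgr6 (-0.66) were under 2-fold. All 4 measured inner root sheath markers were at least 2-fold lower, 2 of them under all 6 scalings, with sums of 161.2 and 64.7. On the immune side, 3 of 7 T cell markers and 1 of 6 Langerhans cell markers were at least 2-fold higher, with sums of 17.9 and 19.2 and of 70.6 and 99.6 on the control and knockout arrays. The 3 T cell calls held with median scaling, but 0 held under all 6 scalings. The signals of these 3 genes in the control were dim, from 82.3 to 109. Cd247, 1 of them, had another measured probe at -0.33, and Thy1, not called, had a probe at -1.24. With median scaling 4 of the 6 Langerhans cell markers were at least 2-fold higher, and 1 was so under all 6 scalings. Markers of skeletal muscle and red blood cells were lower, with 4 of 7 and 3 of 3 measured markers past 2-fold and sums of 6.82 and 2.15 and of 94.3 and 9.28. None of the 5 measured dermal fibroblast markers was 2-fold apart. Of 5 endothelial markers 0 were measured on both arrays. Emcn, measured on the control array alone, was at least 5.38-fold lower, and Tek, measured on the knockout array alone, at least 1.29-fold higher. The part of these cells in the values of Hbegf, Ereg, Epgn, Egfr and Errfi1 was not tested.

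Around the 10 genes, 79 further genes of the pathway were listed in 5 groups, of which 5 had no named probe and 65 were measured on both arrays. At least 2-fold higher were 4 of them (6.15%) and at least 2-fold lower 5 (7.69%), beside 2.98% and 4.46% of all genes. One gene more, not well above background on the knockout array, had a scaled ratio past 2-fold lower under the 75th percentile. With median scaling, 4 ERK-induced transcripts and 1 of the further inhibitors were at least 2-fold higher. Lower were 1 each of the other ErbB ligands, the shedding genes and the ERK-induced transcripts. Of all genes 8.13% were then higher and 2.28% lower. The lists were chosen with earlier results known, and such small counts do not set them apart from all genes.

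Among the other ErbB ligands and the remaining receptor, Nrg1, which encodes a neuregulin that binds ErbB3 and ErbB4, read 55.6 and 18.1 (-1.85 ± 0.32, 3.59-fold lower), though -0.73 with normexp. The remaining ones measured, Egf and Nrg4, were under 2-fold, and Nrg3 and Erbb4 were not well above background on either array. Of 10 measured genes for shedding and trafficking of ligands, only Adam8, a metalloproteinase gene, was 2-fold apart: 9750 in the control and 3040 in the knockout (-1.91 ± 0.20, 3.75-fold lower, and 2-fold lower under all 6 scalings). Adam17, which encodes the main sheddase of these ligands, read 793 and 973 (0.07 ± 0.20).

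Of 16 measured further inhibitors of the receptor and of ERK, Spry2, a Sprouty gene induced by the pathway, was 2.17-fold higher by its brighter probe (294 and 748, 1.12 ± 0.20), while its other measured probe stood at -0.48. Socs4, of the suppressor of cytokine signalling family, was 2.05-fold lower (136 and 77.5), and -0.67 in its least scaling. Dusp4, an ERK phosphatase gene, was measured on the control array alone and read 25.5 and 14.7. The scaled ratio of these signals was 2.03-fold lower, or 1.60-fold with median scaling, under the line. The knockout signal was not well above background, so neither value is a firm minimum. The 21 measured adaptors and kinases between the receptor and ERK had no gene 2-fold apart and a median of -0.02, and Map2k2, a kinase gene, stood at -0.68.

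Transcripts that ERK signalling induces were apart in both directions, with 3 of 15 measured genes at least 2-fold higher and 2 at least 2-fold lower. Ier3, an early response gene, read 754 and 3190 (1.85 ± 0.20, 3.62-fold higher). Myc, a growth regulator, read 3753 and 11507 (1.39 ± 0.20), and its 3 probes lay between 1.39 and 1.69. Ier2 was 2.05-fold higher. Fosl1, which encodes an AP-1 subunit of migrating keratinocytes, read 1650 and 554 (-1.80 ± 0.20, 3.48-fold lower). Phlda1 read 2420 and 1140 (-1.31 ± 0.20) and was -0.97 with median scaling. The list median was -0.02.

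**Figure D5:**
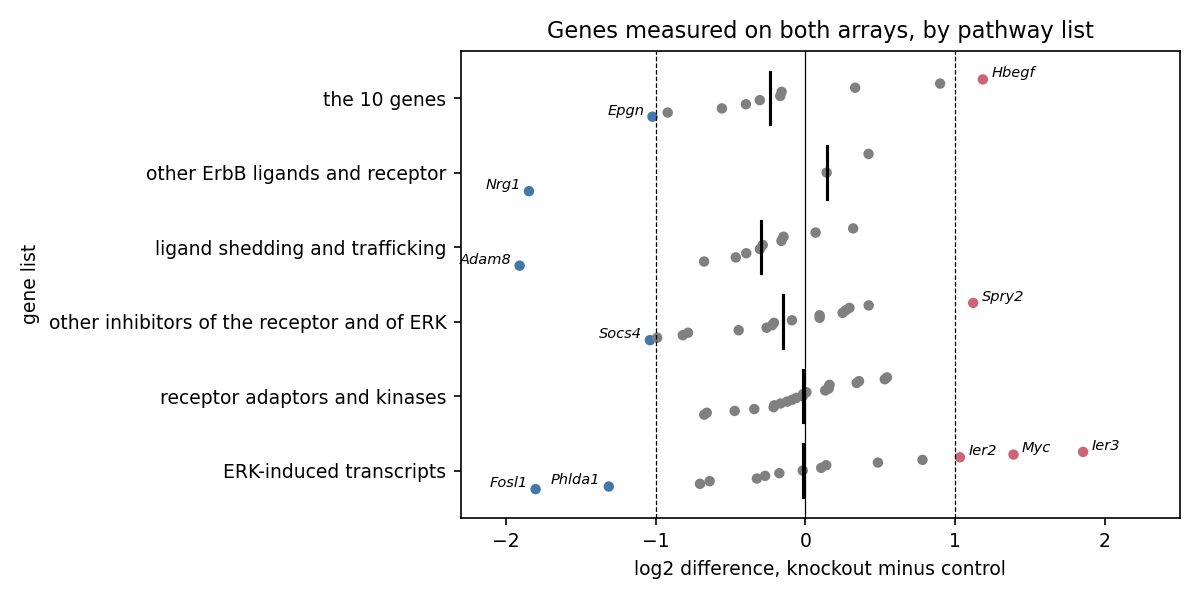
Log2 difference (knockout minus control) of every measured gene in the 10-gene set and in the 5 further pathway lists; black bars are list medians and dashed lines mark 2-fold. The adaptors and kinases stay inside the lines with a median of -0.02, while the ERK-induced transcripts reach from Fosl1 at -1.80 to Ier3 at 1.85.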

How the data were processed

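RNA of peeled mouse epidermis was hybridised to 2 one-colour Agilent arrays, 1 per genotype. Per the labels' protocols, epidermis was peeled after 30 min in 3.8% ammonium thiocyanate kept warm at 37°C, and Cy3-labelled cRNA was made from 0.5 µg of RNA. The deposited scanner files hold spot intensity, background-subtracted by Agilent Feature Extraction 10.7.3.1 on a design annotated on mm9, per the file headers, and the authors also deposited a table of log2 values. The table is centred so that each probe sums to 0, and across probes its differences followed those of the scanner files (r = 1.00), which settles its scale, centring and direction; its column medians were 0.14 and -0.14. Both arrays came from 1 slide and scan.

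Spots marked as non-uniform or as population outliers were dropped with the controls, repeat spots were averaged in log2, and each array was scaled to its 75th percentile over non-control probes. Probes were named by RefSeq accession (assembly GRCm38.p6, names only), which named 26690 of 41174 (64.8%). A gene was read by its brightest probe among those well above background and not saturated on both arrays. A gene dim on 1 array has only a bound, against the higher of its own signal and the lowest signal well above background there. Where its own signal is the higher, this is the plain scaled ratio and no firm minimum. Signals were well above background for 56.2% of control and 56.3% of knockout probes, 0 probes were saturated, and repeat spots had a median log2 SD of 0.11 and 0.08. The number of arrays limits the precision. The calling code was tested on simulated data.

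The genes, the lists and the rule for naming were chosen with earlier results of these data known. All 10 genes are named, and of the other pathway lists those 2-fold apart or the largest differences; Adam17, Nrg3, Erbb4 and Tyr are named beyond that rule after their values were seen, and 1 gene that the rule would name is not reported here. The CRE was added to the motifs after the windows were seen. Alternatives were median scaling, quantile normalization and cyclic loess, normexp on median spot signals with an offset of 50 (limma 3.58.1, R 4.3.3), the authors' table, the mean over probes, other filters, other thresholds and keeping outlier spots. Spots non-uniform in signal or background were kept out of the normexp fit, because 1 extreme local background spoiled its first fit, a choice made after seeing the data. Tables were handled with pandas 2.3.3 and numpy 2.4.6 under Python 3.11.15, and figures drawn with matplotlib 3.10.9.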

Additional observations from a re-analysis of the deposited data

How the results depend on the processing

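No paired analysis was possible because only 1 array was analysed for either genotype. The median difference of the 10 genes (-0.24) was 0.11 with median scaling, which moves every gene up by 0.35, and -0.47 with the mean over probes; relative to the median gene it was -0.19 with median scaling too. The count of genes at least 2-fold higher (1, Hbegf) was 2 with median scaling, where Ereg joins it, 2 at 1.5-fold and 0 at 3-fold. The count at least 2-fold lower (1, Epgn) was 0 with median scaling, quantile normalization, cyclic loess, normexp and the 3-fold threshold, and 2 at 1.5-fold (Epgn and Errfi1) and with the mean over probes (Epgn and Tgfa). Over all genes the counts of 370 higher and 554 lower were 1009 and 283 with median scaling, 457 and 462 with quantile normalization, and with normexp 184 and 229. A line at 1.5-fold gave 1241 and 1666, one at 3-fold 103 and 189. Asking for signal on a single array gave 565 and 840, and dropping the background filter 662 and 1442. Of 90 single-gene differences under the alternatives, including outlier spots kept, which was added after seeing the data, 76 moved by less than their standard error, 14 by more and none of those called at 2-fold changed sign. Many of the 76 could not move, so their number is no measure of stability. Both background filters return the same probe for all 10 genes, and the authors' table follows the main scaling. A gene with 1 measured probe has no other to average. Of those that moved by more, 10 did so with median scaling, 2 with normexp and 2 with the mean over probes. Tgfa, Erbb2 and Erbb3 turned above 0 with median scaling. The widest standard errors are those of the Btc probe not well above background (0.61) and of the dim Erbb3 probes (up to 0.44).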
